A study of Paralichthys olivaceus with 2 samples.

Results

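The miR-30 family was examined on the miRNA arrays of Japanese flounder (Paralichthys olivaceus) larvae. Its members were chosen by name, as the conserved probes called miR-30 with a letter from a to e and no star, and 6 of the 263 conserved probes on each array met this rule. They were 5 zebrafish probes (prefix dre-), for dre-miR-30a, dre-miR-30b, dre-miR-30c, dre-miR-30d and dre-miR-30e, and 1 pufferfish probe (prefix fru-), fru-miR-30c. Another 3 probes with PN codes had targets that contained a member's target and served as second measurements. The study hybridised 1 array with RNA of larvae at 29 days post hatching (dph), a stage labelled mid-metamorphosis, and 1 array with RNA of larvae at 17 dph, labelled pre-metamorphosis. Each RNA came from a tube of 5 whole, untreated larvae given an anaesthetic at collection. Neither genotype nor strain is stated in the labels. Because each stage has a single array, p-values are not given, every SD is over the 3 spots of a probe on an array, and the spread between larvae is not known.

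MicroRNAs are short RNAs that repress mRNAs, and the bases 2 to 8, the seed, do most of the pairing with the target. The members of the miR-30 family have the same seed and differ in the rest of the molecule, so that they are thought to share many targets. In Xenopus the family is needed for the development of the pronephros, the larval kidney. In zebrafish it has been tied to the development of liver and bile ducts and, through the Hedgehog pathway component smoothened, to muscle cell fate. In whole larvae, fewer cells that hold a miRNA and less of it per cell cannot be told apart.

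The targets of the 6 members are shown because they set what each probe can tell apart. All are 22 nt long, and capitals mark the seed.
dre-miR-30a: uGUAAACAuucccgacuggaag
dre-miR-30d: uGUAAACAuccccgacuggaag
dre-miR-30e: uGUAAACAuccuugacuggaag
dre-miR-30b: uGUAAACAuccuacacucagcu
dre-miR-30c: uGUAAACAuccuacacucucag
fru-miR-30c: uGUAAACAuccuacacucucgg

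The first 9 bases were the same in all 6 targets. Of the 987 probes on an array, 9 had the seed GUAAACA at bases 2 to 8, namely the 6 members and their 3 coded counterparts, which is 0.912% of the probes. Past the seed, the targets fell into 2 groups. dre-miR-30a and dre-miR-30d differed at 1 position (U10C, counted from the 5′ end, with the base of the probe named first at the front), and dre-miR-30d and dre-miR-30e differed at 2 (C12U and C13U). dre-miR-30c and fru-miR-30c differed at 1 position (A21G), and dre-miR-30b differed from either of them at 4, all within the last 4 bases. Between the groups, 5 to 9 positions differed. Whether a probe also bound RNA of a neighbour with 1 or 2 differences was not tested.

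The coded counterparts carried 1 further base, a C, at the 3′ end of a member's target, and the remaining sequence was identical. They are shown because they repeat the measurement of miR-30c and miR-30d at other places on the array.
PN197: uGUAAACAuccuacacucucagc
PN112: uGUAAACAuccuacacucucggc
PN57: uGUAAACAuccccgacuggaagc

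PN197 contained the target of dre-miR-30c, PN112 that of fru-miR-30c and PN57 that of dre-miR-30d. No coded counterpart was found for dre-miR-30a, dre-miR-30b or dre-miR-30e.

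The larvae were checked against markers of 7 tissues and cell types. Of 15 such marker probes, 14 were detected at 29 dph and 9 at 17 dph. At 17 dph the detected markers covered muscle, liver, nerve, skin and gut. The 5 marker probes detected at 29 dph only were those for miR-1 and miR-133c (muscle), miR-9 (nerve), miR-126 (endothelium) and miR-451 (blood), and the blood marker miR-144 was detected on neither array. Detection required 50% or more of the spots of a probe to exceed a limit, set at 3 SD over the mean of the empty spots on that array. In density units the limit came to 45.6 at 29 dph and to 68.7 at 17 dph. An alternative limit, the median + 3 scaled MAD of the empty spots, was 46.5 at 29 dph and 54.9 at 17 dph. The mean density of miR-133c at 17 dph, 66.0, lay between the main and the alternative limit, so its absence there depended on the limit. The means of miR-1 (46.7), miR-9 (46.5), miR-126 (49.2) and miR-451 (42.7) at 17 dph lay below both. Detection of the markers under the alternative limit was not tested. The median density of the conserved probes was 45.1 at 29 dph and 45.9 at 17 dph, and that of the coded probes was 228.8 and 63.7.

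The miR-30 family gave low signals on both arrays, and before any scaling the mean density of each member was higher at 29 dph, with spots that overlapped for 2 of the 6. All 6 members were detected at 29 dph, where 132 of the 263 conserved probes (50.2%) were. At 17 dph 1 of the 6, fru-miR-30c, was detected, against 68 of 263 (25.9%). This count depended on the limit. With a limit of 54.9 at 17 dph, 2 members and 81 conserved probes were detected. With a limit of 51.7, 3 members and 86 conserved probes were. The 3 coded counterparts were detected on both arrays. For 4 of the 6 members the spots of the 2 arrays did not overlap. Among the 132 detected conserved probes, 86.4% were brighter at 29 dph with spots that did not overlap.

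miR-30c, which in mouse and human liver represses a protein needed to load lipid onto lipoproteins, was measured by 4 probes. fru-miR-30c had spot densities of 161.1, 190.0 and 222.8 at 29 dph, and of 96.6, 87.1 and 81.4 at 17 dph. All 3 spots at 29 dph were brighter than all 3 at 17 dph, and all 6 lay above the detection limit of their array. The counterpart PN112 had densities of 146.4, 133.4 and 140.4 at 29 dph, and of 81.6, 81.5 and 87.3 at 17 dph. Here too the spots of the arrays stood apart, and the SD of the spots was 6.48 at 29 dph and 3.34 at 17 dph, smaller than the 30.8 and 7.68 of fru-miR-30c.

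dre-miR-30c had densities of 160.3, 133.5 and 161.4 at 29 dph, and of 53.2, 65.8 and 48.1 at 17 dph. All 3 spots at 17 dph were under the limit of 68.7, while those at 29 dph were well over theirs. The counterpart PN197 had densities of 250.9, 231.5 and 260.8 at 29 dph, and of 115.2, 108.2 and 118.0 at 17 dph. PN197 was thus over the limit on both arrays although it differs from dre-miR-30c by its last base alone. The ratio of mean densities, 29 dph over 17 dph, was 2.18 for PN197, 2.17 for fru-miR-30c and 1.68 for PN112, the 3 probes of miR-30c detected on both arrays. These densities include background, and the median of the empty spots was 38.75 at 29 dph and 45.56 at 17 dph. Over that median, the mean densities at 29 and 17 dph were 209.0 and 68.2 for PN197. They were 152.5 and 42.8 for fru-miR-30c, and 101.3 and 37.9 for PN112.

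miR-30d, reported in human melanoma to act on enzymes that glycosylate proteins, was measured by 2 probes. dre-miR-30d had densities of 98.0, 82.8 and 97.8 at 29 dph, and of 58.7, 74.4 and 59.7 at 17 dph. The arrays did not overlap, but only 1 of the 3 spots at 17 dph was above the limit, so that the probe did not count as detected there. PN57 had densities of 162.7, 155.3 and 164.7 at 29 dph, and of 113.2, 121.2 and 109.0 at 17 dph, all above the limits. The ratio of mean densities of PN57, 29 dph over 17 dph, was 1.41 with background included. Over the median of the empty spots, its mean density was 122.1 at 29 dph and 68.9 at 17 dph.

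The other 3 members were dimmer. dre-miR-30b, whose family was shown in zebrafish and human endothelium to act on the Notch ligand DLL4, had densities of 63.0, 61.1 and 72.2 at 29 dph, and of 42.7, 47.4 and 43.6 at 17 dph. Its spots did not overlap between the arrays, and at 17 dph their mean of 44.6 was below the median of the empty spots, 45.6. dre-miR-30a, known in human cells for repressing the autophagy protein Beclin, had densities of 56.2, 44.4 and 51.7 at 29 dph, and of 42.1, 49.9 and 43.2 at 17 dph. Its spots overlapped, and 2 of 3 were above the limit at 29 dph.

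dre-miR-30e had densities of 62.7, 55.3 and 53.0 at 29 dph, and of 49.5, 53.4 and 45.2 at 17 dph. Its spots overlapped as well. For dre-miR-30a and dre-miR-30e the raw spots of the 2 arrays were thus not separated, with the background of each array included. Over the median of the empty spots of the array, the mean density of dre-miR-30a was 12.0 at 29 dph and -0.51 at 17 dph. That of dre-miR-30e was 18.2 at 29 dph and 3.80 at 17 dph. The probe for the other strand of the miR-30e hairpin, dre-miR-30e*, is no member by the rule. It averaged 67.7 ± 2.52 at 29 dph and 47.8 ± 5.89 at 17 dph, and was detected at 29 dph only.

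**Figure D1:**
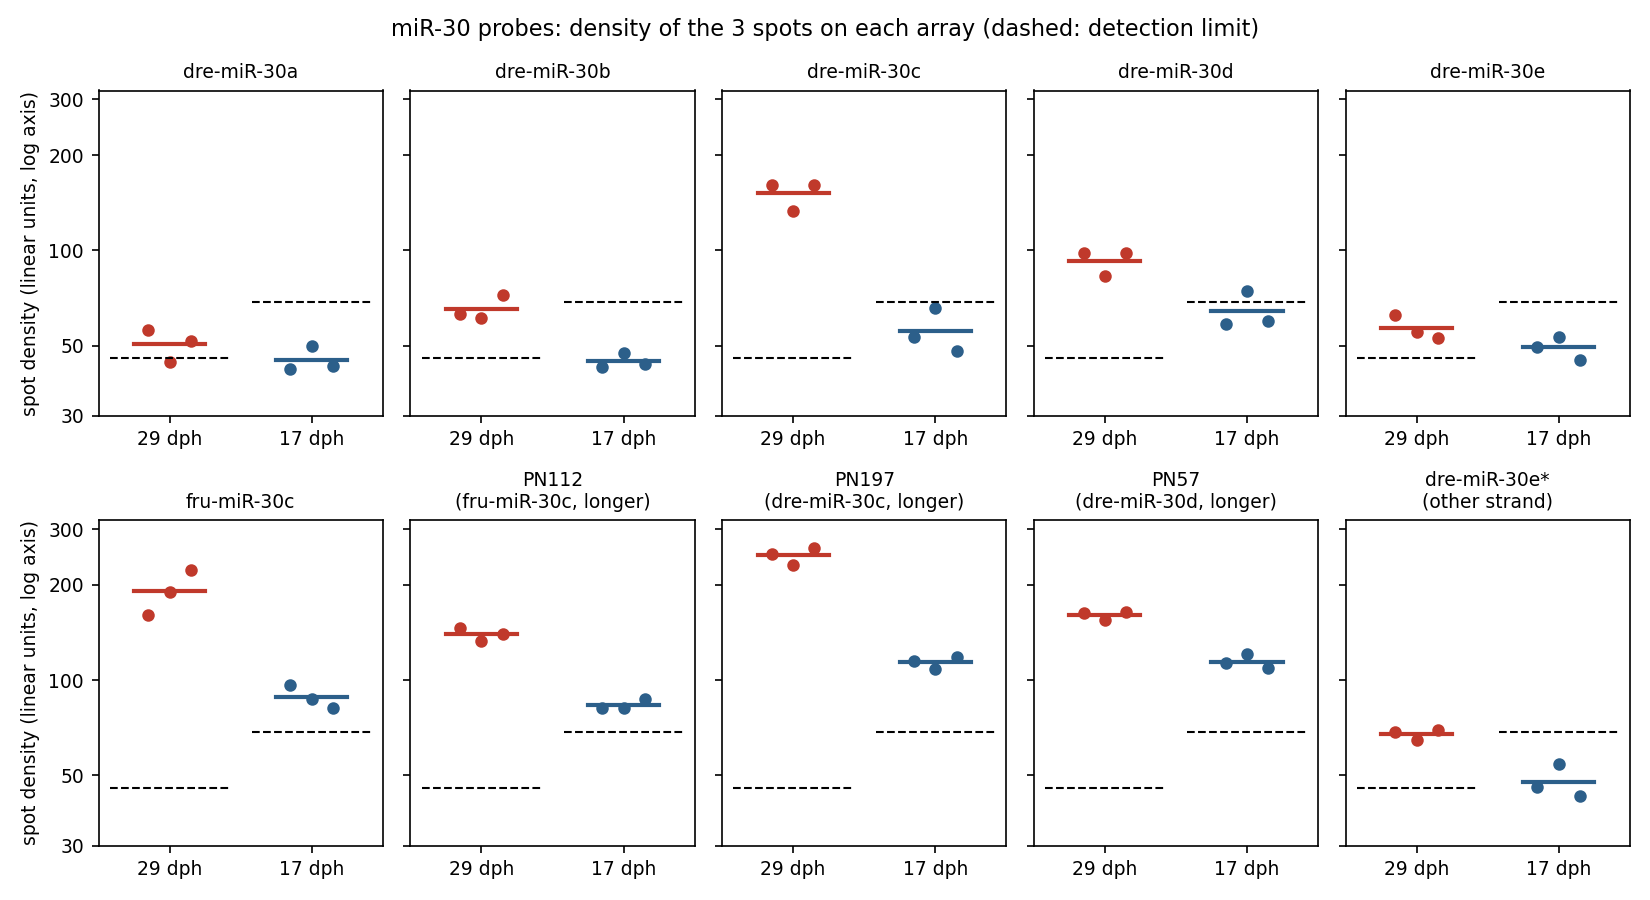
Density of each of the 3 spots (points, linear units on a log axis) of the 6 conserved miR-30 probes, the 3 coded counterparts and dre-miR-30e*, at 29 dph (left in each panel) and 17 dph (right). Bars are the mean of the spots and dashed lines the detection limit of the array, 45.6 at 29 dph and 68.7 at 17 dph; fru-miR-30c and the PN-coded probes are above it on both arrays.

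The comparison of the stages asked which miRNAs differed between 29 and 17 dph once the arrays were put on a common scale. Densities were background-corrected, taken to log2 and quantile-normalized over all probes, which gives both arrays the same distribution of values. A call, higher or lower at 29 dph, needed detection on 1 array or both, a log2 difference (29 dph minus 17 dph) of 1 or more in size, and spots that did not overlap. None of the 6 members was called in either direction. Of the 132 detected conserved probes, 9.09% were called higher and 17.4% lower. The median log2 difference of the 6 members was -0.070, against -0.26 over the 132.

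On this scale 3 members lay above 0 and 3 below, with differences between -0.74 and 0.27. fru-miR-30c had a normalized log2 signal of 6.97 ± 0.14 at 29 dph and 7.71 ± 0.18 at 17 dph, a difference of -0.74 with spots that did not overlap. dre-miR-30d had 6.41 ± 0.066 at 29 dph and 7.05 ± 0.27 at 17 dph, a difference of -0.64, also without overlap. dre-miR-30b had a difference of 0.27 without overlap. The differences of dre-miR-30c (0.18), dre-miR-30a (0.025) and dre-miR-30e (-0.17) were within the spread of their spots, whose SD at 17 dph was 0.51, 0.28 and 0.36. The 5 dre- members were not detected at 17 dph under the main limit. Lower limits detected dre-miR-30d (18.7 over the median of the empty spots) and, with the 95th percentile of the empty spots, dre-miR-30c (10.1). dre-miR-30a, dre-miR-30b and dre-miR-30e lay nearer to background. For none of the 5 was the lower bound on the fold, 29 dph over 17 dph, above 1, so that no fold is given.

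The probes of miR-30c did not give 1 direction on this scale. The differences were 0.18 for dre-miR-30c, -0.74 for fru-miR-30c, -0.89 for PN112 and -0.93 for PN197. Between PN197 and dre-miR-30c, which overlap in all but the last base of PN197, the differences were -1.10 apart. The SD of the spots of dre-miR-30c at 17 dph, where it was under the detection limit, was 0.51. Without scaling of the arrays, the differences were 1.26 for dre-miR-30c and 1.04 for PN197. For miR-30d both probes were negative after quantile normalization, at -0.64 for dre-miR-30d and -1.33 for PN57. PN57 was the 1 miR-30 probe of 9 that was called, as lower, and 24.5% of the 110 detected PN-coded probes were called lower too.

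The 4 miR-30 probes detected on both arrays were set beside the other probes of their kind with the same detection. Conserved probes detected on both arrays had a median log2 difference of -0.75 (n = 68, quartiles -1.24 and -0.28), and fru-miR-30c, at -0.74, was close to it. PN-coded probes detected on both arrays had a median of -0.93 (n = 58, quartiles -1.46 and -0.31), close to the values of PN112 and PN197, and PN57 lay between the median and the lower quartile. PC-coded probes detected on both arrays had a median of 0.18 (n = 286), on the other side of 0. Probes detected at 29 dph only had medians of 0.10 for conserved (n = 64), -0.20 for PN-coded (n = 52) and 0.20 for PC-coded probes (n = 160). Detection at 17 dph uses a value that enters the difference, so a sign within such a class is a description and supports nothing.

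**Figure D2:**
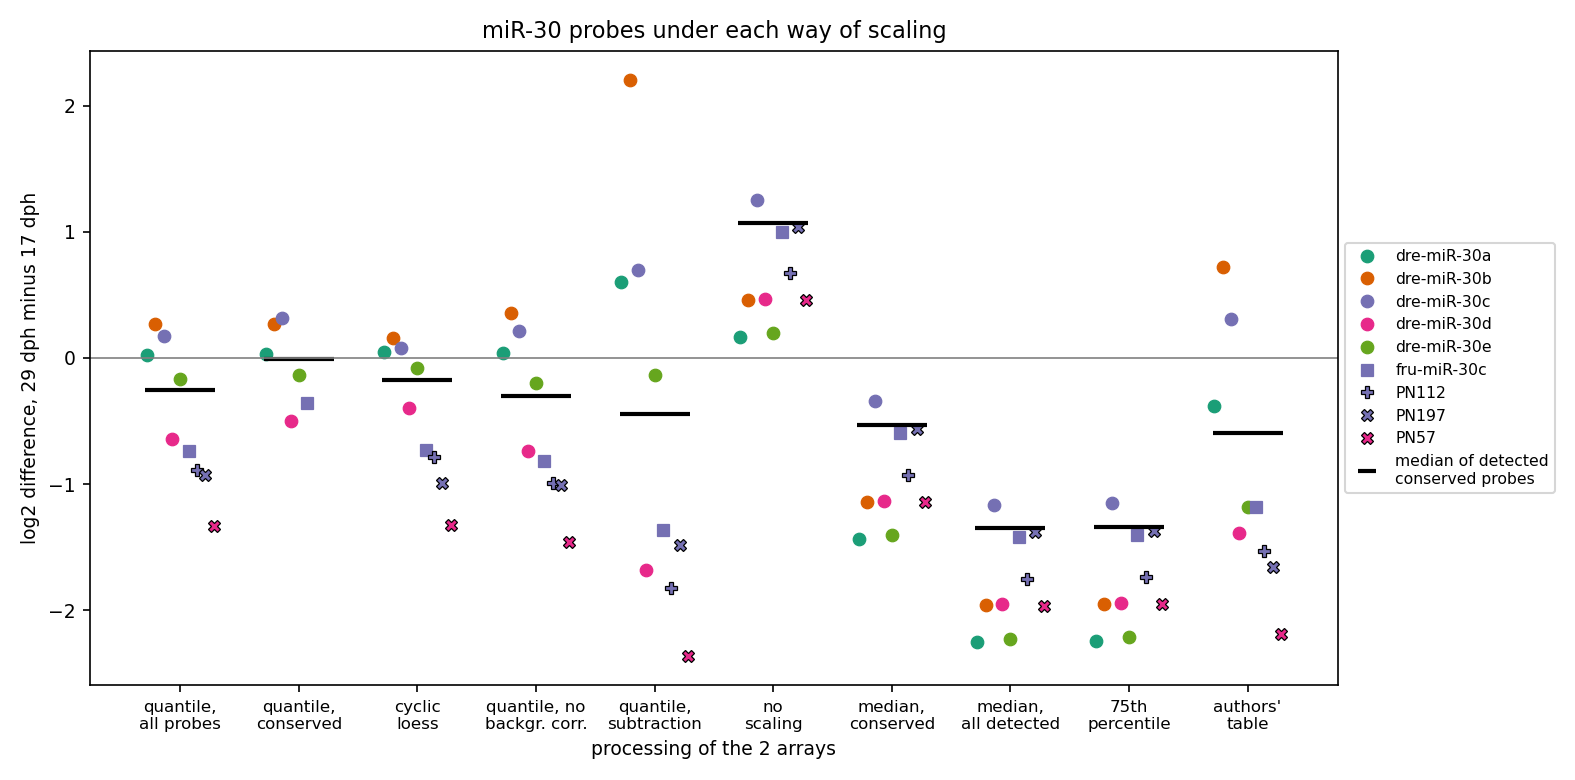
Log2 difference (29 dph minus 17 dph) of the 6 conserved miR-30 probes and the 3 PN-coded counterparts under 10 ways of processing the arrays; the counterparts have no value where conserved probes alone were used. Black bars are the median of the 132 detected conserved probes, and the whole family lies above 0 without scaling and below 0 with scaling by a median or by the 75th percentile of all probes.

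The sign of the family's difference depended on the scaling. Without scaling all 6 members were positive, with differences of 0.17 for dre-miR-30a to 1.26 for dre-miR-30c, and 2 were called higher (dre-miR-30c and fru-miR-30c), as were 52.3% of the detected conserved probes. The median of the members was then 0.46, below the 1.07 of the detected conserved probes. With quantile normalization over the conserved probes alone, which removes the coded probes from the common scale, fru-miR-30c moved to -0.36 and dre-miR-30c to 0.31. No member was called, and of the 132 detected conserved probes 16 were called higher and 12 lower. The median of the members was -0.052 and that of the detected conserved probes -0.0053.

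Scaling by 1 factor per array moved the family below 0. With the median over every probe that both arrays detected, all 6 members were called lower, with differences of -2.25 to -1.16, as were 65.9% of the detected conserved probes. The 75th percentile of all probes also gave 6 members called lower, beside 65.9% of the detected conserved probes. With the median of the conserved probes detected on both arrays, 4 members were called lower (dre-miR-30a, dre-miR-30b, dre-miR-30d and dre-miR-30e), beside 36.4%. Conserved probes detected on neither array had medians of -2.49, -2.48 and -1.67 under these 3 scalings, against -0.054 after quantile normalization. dre-miR-30a and dre-miR-30e, near background on both arrays, had -2.25 and -2.22 under the first of them.

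The authors' deposited series table holds 1 processed intensity per probe, and its background and scaling steps are not known. In it fru-miR-30c stood at 56.8 at 29 dph and 128.6 at 17 dph, and dre-miR-30d at 22.2 at 29 dph and 57.9 at 17 dph. dre-miR-30c stood at 45.5 at 29 dph and 36.8 at 17 dph, and dre-miR-30b at 12.6 at 29 dph and 7.67 at 17 dph. So fru-miR-30c and dre-miR-30c lay on opposite sides in this table too, with log2 differences of -1.18 and 0.30. By size alone 3 members were lower by at least 2-fold (dre-miR-30d, dre-miR-30e and fru-miR-30c), beside 39.4% of the detected conserved probes. The PN-coded counterparts were all lower, at -1.53 for PN112, -1.66 for PN197 and -2.19 for PN57. The share of PN-coded probes lower in this table is not known. After quantile normalization over all probes, 87.9% of the 58 PN-coded probes detected on both arrays had a negative difference.

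The gap between the 2 conserved miR-30c probes, fru-miR-30c minus dre-miR-30c, was -0.92 after quantile normalization, -2.06 with background subtraction and -0.25 without scaling. A single factor per array leaves it at -0.25 by construction, and dre-miR-30c was not well above background at 17 dph. With plain background subtraction before quantile normalization, 1 member was called higher (dre-miR-30b at 2.21, beside 25% of detected conserved probes) and 2 lower (dre-miR-30d and fru-miR-30c, beside 34.8%). Subtracted values under 1 were set to 1. At 17 dph the dre-miR-30b spots of 42.7 and 43.6 lay below the median of the empty spots, 45.56. They were thus set to this floor, so the 2.21 is no measure of a fold. At a threshold of 1.5-fold, fru-miR-30c and dre-miR-30d were called lower, beside 31.8% of the detected conserved probes.

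The members were also described by the place of their spots on the array. The 5 dre- members lay in neighbouring rows, with 1 spot each in the same 3 columns. At 29 dph the middle spot was the brightest in 0 of the 5, against 37.6% of the 263 conserved probes. It stood at a median of 0.85 times the mean of the other 2 spots, against 1.01 over the conserved probes. At 17 dph it was the brightest in all 5, against 47.9% of the 263 conserved probes, and stood at a median of 1.17 times the mean of the other 2 spots, against 1.03 over the conserved probes. Without the middle spot, a setting chosen after the data were seen, dre-miR-30c moved to 0.48, fru-miR-30c stayed at -0.75, and no member was called. Of the 132 detected conserved probes, 15 were then called higher and 23 lower. What part the position had in the values was not tested.

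The members' targets had a GC content of 40.9% (dre-miR-30b, dre-miR-30c and dre-miR-30e), 45.5% (dre-miR-30a and fru-miR-30c) and 50% (dre-miR-30d), close to the 45.5% median of the detected conserved probes. Over these 132 probes, which share both arrays, the log2 difference and the GC content had a Spearman's rho of -0.66 after quantile normalization and -0.13 without scaling. Among the 9 probes with the seed, the positive differences lay at 45.5% or less and the lowest, that of PN57, at the highest GC content, 52.2%. Negative differences lay at 45.5% or less too, for dre-miR-30e (-0.17 at 40.9%), PN197 (-0.93 at 43.5%) and fru-miR-30c (-0.74 at 45.5%). With the linear GC trend removed, a setting chosen after the data were seen, fru-miR-30c stayed at -0.74 and PN57 moved to -0.69. PN197, at -1.12, was then the 1 counterpart called lower, beside 14 of the 132 detected conserved probes. The share of PN-coded probes called lower in this setting is not known. The trend was fitted on the 132 conserved probes alone, and overlap of spots was judged before its removal. dre-miR-30c stood at -0.26 and dre-miR-30b at -0.17, both on the other side of 0, and dre-miR-30e moved to -0.60. So 5 of the 6 members were negative, against 3 of 6 with the trend kept. The median of the detected conserved probes was -0.26 in both settings by construction, because it was added back after the trend was removed.

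**Figure D3:**
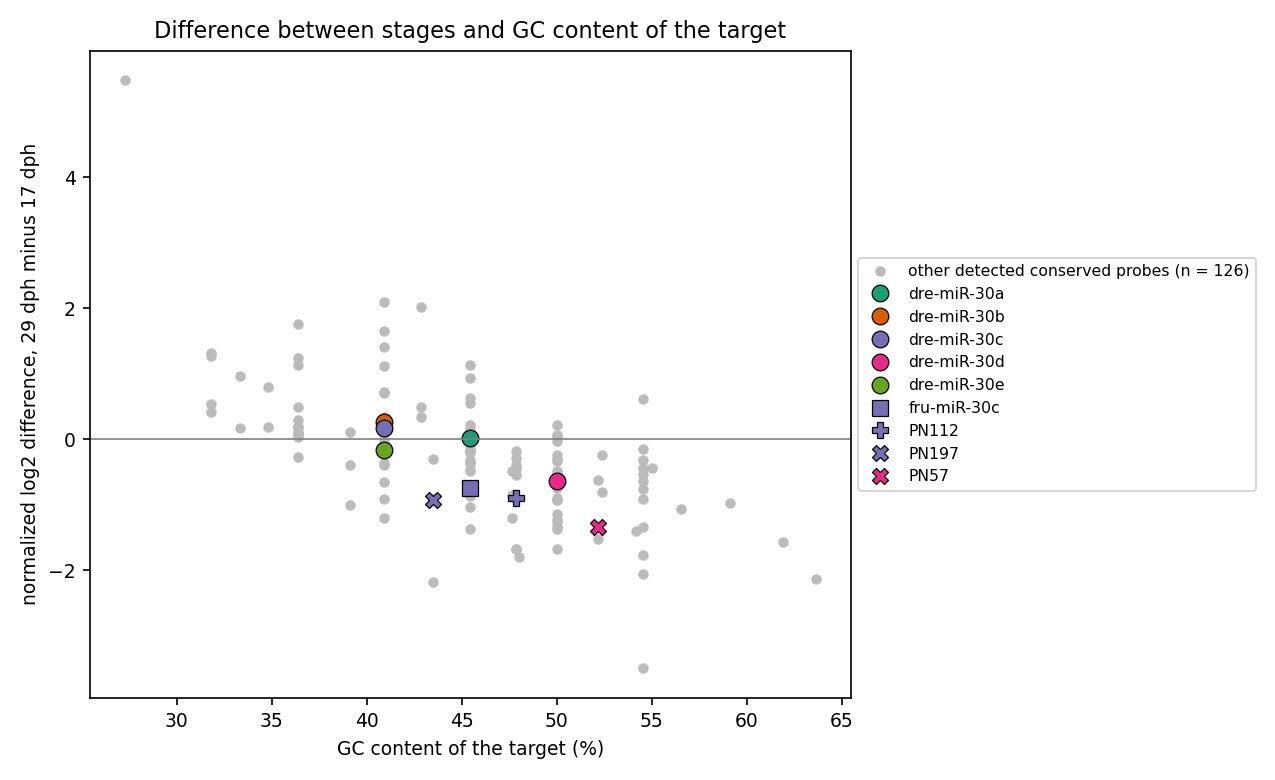
Normalized log2 difference (29 dph minus 17 dph, quantile normalization over all probes) against GC content of the target in percent, for the 6 conserved miR-30 probes, the 3 PN-coded counterparts and the other 126 detected conserved probes (grey). The miR-30 probes lie among the grey points, from 0.27 for dre-miR-30b to -1.33 for PN57.

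Set beside other miRNA families, the miR-30 family had a median difference between theirs after quantile normalization over all probes. The calls and median differences below are on that scale, and no test between families was possible. Its 6 members had median densities of 79.1 at 29 dph and 52.5 at 17 dph. At 29 dph the median density of the detected probes was 235.7 for let-7, 1099.3 for miR-181 and 3522.9 for miR-26. Their median GC content was 36.4%, 50% and 38.6% in this order, against 43.2% for miR-30. What part brightness or GC content had in the order of the families was not tested. The let-7 family, known for developmental timing, had 3 probes called higher, 0 lower and a median difference of 0.35 over 10 detected probes. miR-181, known from lymphocytes and muscle differentiation, had 0 higher, 1 lower and a median of -0.49 over 3. The 2 miR-26 probes had a median of 0.69, from differences of -0.37 (miR-26a) and 1.76 (miR-26b), with 1 called higher. A list of tissue miRNAs was also set beside the family. It held miR-1, miR-133 and miR-206 (muscle), miR-122 (liver), miR-192 and miR-194 (kidney and gut) and miR-204 (kidney and eye). Its 9 detected probes had a median of -0.20, with 1 called higher and 3 lower.

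The conserved probes most like fru-miR-30c, the member detected on both arrays, were sought among the 67 other conserved probes detected on both, by Euclidean distance over the 2 normalized log2 signals. They were miR-183, a miRNA of sensory organs (distance 0.13, difference -0.92), miR-107 (distance 0.18, difference -0.54) and miR-210, known for its response to low oxygen (distance 0.21, difference -0.97). With 2 arrays, this likeness rests on 2 values per probe.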

How the data were processed

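RNA of whole flounder larvae at 29 dph and 17 dph was measured on 1 single-colour array each. Per the labels' protocols, small RNAs were isolated by size, given a poly(A) tail and stained with Cy5. The deposited array tables hold the mean density of each of 3968 spots, a linear intensity that shows no background subtraction or scaling, as judged from the values. Which scanner and software made the images is not stated in those protocols. The deposited series table holds 1 intensity per probe, processed by the authors in ways not stated.

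The background was removed by the normexp method of limma 3.58.1 (R 4.3.3), fitted to every spot with an offset of 50. Control spots were then dropped, log2 values were quantile-normalized across the probe spots, and each probe got the mean of its 3 spots. Probes of different species prefix were kept apart, and a coded probe was nested when its target contained a member's or lay within it, over at least 15 bases. The alternatives were other scalings, background steps, thresholds and detection limits. The background-corrected log2 scale has an offset, which understates differences of dim probes before the arrays are scaled. After quantile normalization this need not hold. The raw SD of the dre-miR-30c spots was 10.4% of their mean at 29 dph and 16.4% at 17 dph. Their normalized SD was 0.087 at 29 dph and 0.51 at 17 dph. Named probes were all members, their coded counterparts, the starred miR-30 probe and the 3 conserved probes nearest to a member detected on both arrays. Calls and summaries were computed in Python 3.11.15 with SciPy 1.17.1, NumPy 2.4.6 and pandas 2.3.3. The calls were tested on simulated arrays that had the same background and as many raised as lowered probes, with changes in bright probes alone. The real arrays differed in background and most members were dim, so the simulation cannot tell how well the calls work for them. The members, lists and rules were chosen with earlier results of these data known. The gene table of the flounder assembly had 0 entries matched to miR-30 by name, so no genome position is given.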

Additional observations from a re-analysis of the deposited data

How the results depend on the processing

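Detection at 29 dph held for 5 or 6 members under every limit tried. At 17 dph 2 members were detected with the median + 3 scaled MAD of empty spots as the limit (dre-miR-30d and fru-miR-30c), beside 81 conserved probes. With the 95th percentile of the empty spots 3 members were, beside 86 conserved probes. The main limit gave 1 member and 68 conserved probes. The number called higher, 0, became 2 without scaling and 1 with background subtraction. The number called lower, 0, became 6 with the median of all probes detected on both arrays and 6 with the 75th percentile. It became 4 with the median of the conserved probes, 3 in the authors' table, 2 with background subtraction and 2 at 1.5-fold. At 4-fold it was 0, which follows from the 0 at 2-fold. The median difference of the members, -0.070, was 0.46 without scaling, -1.95 with the median of all detected probes, -1.94 with the 75th percentile, -1.13 with the conserved median, 0.23 with subtraction, -0.78 in the authors' table, 0.12 without the middle spot, 0.0028 with the median of the spots, -0.015 with cyclic loess and -0.24 with the GC trend removed. Relative to the detected conserved probes it was 0.18, but -0.60 without scaling and with each single factor, 0.68 with subtraction, -0.19 in the authors' table, -0.047 with the quantiles of the conserved probes, 0.30 without the middle spot and 0.019 with the GC trend removed. PN57 turned to 0.46 without scaling and was no longer called at -0.69 with the GC trend removed. PN197, not called at -0.93, was called lower at -1.12 with the GC trend removed and at -1.01 without background correction. Of the 132 detected conserved probes, 14 and 28 were called lower in these settings. Without scaling PN197 was called higher, at 1.04, beside 52.3% of the detected conserved probes. All 3 counterparts were called lower with the median of all detected probes and with the 75th percentile, beside 65.9% in each. They were also called lower with subtraction (34.8%) and, by size alone, in the authors' table (39.4%). The shares of PN-coded probes called in these settings are not known. The settings without the middle spot and without the GC trend were chosen with the values in view. The causes were not tested. Signals near background and 1 array per stage limit every value. No paired analysis was possible because each stage has 1 array.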
